A study of Mus musculus with 8 samples.

Results

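Solute carriers are the membrane proteins that move sugars, amino acids, nucleosides, metals, vitamins and inorganic ions across the membranes of a cell. Their genes were followed in monocyte-derived dendritic cells of the inflamed mouse central nervous system. A gene was included when its symbol in the table had the form of a solute carrier symbol, either Slc followed by a family number, the letter a and a member number, or Slco followed by a number. This gave 179 of 12256 genes, all of which entered the test. The rule reads the symbol and no measured value, although the family was picked with earlier results of these data known. All mice were C57Bl/6 with experimental autoimmune encephalomyelitis (EAE), a model of multiple sclerosis raised here by immunisation with residues 35 to 55 of myelin oligodendrocyte glycoprotein. When disease peaked, 2 to 4 days from onset, mice received either 10 μL of PBS or 1000000 neural precursor cells (NPC) into the cerebrospinal fluid. The dendritic cells were sorted 7 days later from spinal cord and hindbrain, as cells with high CD45, intermediate CD11c and surface CD11b, Ly6C and MHC class II but no Ly6G. Each of the 8 libraries, PBS 1 to 4 and NPC A to D, came from a pool of 4 to 7 mice, so differences between single mice are not seen and p-values measure the spread between pools. Age and sex are not given in the labels, and mice without EAE were not analysed here.

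Most carriers need no ATP of their own. They let a solute run down its gradient, or couple it to sodium, protons or a second solute moving the same or the opposite way, and some sit in lysosomes, Golgi or mitochondria instead of the surface. In myeloid cells they are known for supplying arginine to nitric oxide synthase and arginase, for importing cystine for glutathione, for exporting lactate during glycolysis, and for withholding or adding metals in the phagosome. Several are controlled by transcription factors that respond to the supply of their substrate, such as ATF4 for amino acids and MTF1 for zinc.

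Sequencing depth differed with treatment: 7702189 to 21068166 reads lay behind the PBS libraries and 2653818 to 7003542 behind the NPC libraries, so depth and treatment cannot be told apart. Carrier genes took 0.771 to 0.964% of PBS reads and 0.751 to 0.988% of NPC reads. The median carrier had 148 to 295 reads in a PBS library and 42 to 101 in an NPC library, and 0 to 10 carriers per PBS library and 10 to 38 per NPC library had under 10 reads. All 8 genes listed as marks of the sorted cell (Ptprc, Itgam, Itgax, H2-Ab1, H2-Aa, Cd74, Ly6c2, Ccr2) were in the table, with a summed level of 13.60 to 13.99 in PBS and 13.59 to 14.19 in NPC libraries (log2 normalised expression, where reads were counted per 1000000 of each scaled library). The 8 T cell genes summed to 7.39 to 7.54 in PBS and 7.41 to 8.16 in NPC libraries, 7 of 8 higher in NPC, with Cd3e and Cd4 at an unadjusted p under 0.05 (0.0173 and 0.00582, limma). The 7 neutrophil genes summed to 6.77 to 7.44 and 7.29 to 7.42 (6 of 7 higher). The 7 microglial genes summed to 6.11 to 7.64 and 6.58 to 7.83 (7 of 7 higher). For the 3 endothelial genes it was 7.075 to 7.26 and 7.04 to 7.43 (3 higher). The 5 oligodendrocyte genes gave 6.14 to 6.56 and 5.98 to 6.67 (2 higher). The 4 astrocyte genes gave 5.64 to 6.26 and 5.81 to 6.02 (1 higher). The 3 B cell genes gave 1.94 to 2.77 and 1.93 to 3.43 (2 higher). Of 5 neuronal genes 1 was in the table, Snap25, at -0.01 to 0.87 and 0.61 to 1.23 on 5 to 22 reads. For neural precursor cells, the injected type, 0 of 5 listed genes were in the table, so their RNA could not be followed. The lists held 5 B cell, 5 astrocyte, 6 oligodendrocyte and 6 endothelial genes before those absent from the table were left out. Outside the T cell list, 0 measured marker genes had an unadjusted p under 0.05. In bulk RNA, fewer cells of a type and less RNA per cell cannot be told apart. The part of these other cells in the values below was not tested.

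The promoters of 5 carriers are shown. Of these, 2 were picked as textbook targets of ATF4 or MTF1, and the other 3 for having among the smallest p between the groups. Each is the 250 bases before the RefSeq transcription start (GRCm38.p6), read along the gene's own strand. For Slc7a11, the cystine importer, chr3:50443614-50443863 on the minus strand is given, with capitals on both matches to TGATGNAA, the core of the amino acid response element bound by ATF4. For Slc30a1, the zinc exporter, chr1:191906531-191906780 on the plus strand is given, with capitals on the match to TGCACNC or TGCGCNC, the metal response element of MTF1. The remaining windows are chr3:90247942-90248191 for Slc39a1, chr11:75531444-75531693 for Slc43a2 (the first of its 2 windows) and chr16:92058072-92058321 for Slc5a3, all on the plus strand. In them capitals mark CCAAT and GGGCGG, the CCAAT box and the GC box, and on each window both strands were searched.
Slc7a11: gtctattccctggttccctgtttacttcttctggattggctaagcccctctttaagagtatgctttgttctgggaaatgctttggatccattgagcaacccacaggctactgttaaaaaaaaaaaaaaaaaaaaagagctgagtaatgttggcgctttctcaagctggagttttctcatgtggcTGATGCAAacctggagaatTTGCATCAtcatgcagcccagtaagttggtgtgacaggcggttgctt
Slc30a1: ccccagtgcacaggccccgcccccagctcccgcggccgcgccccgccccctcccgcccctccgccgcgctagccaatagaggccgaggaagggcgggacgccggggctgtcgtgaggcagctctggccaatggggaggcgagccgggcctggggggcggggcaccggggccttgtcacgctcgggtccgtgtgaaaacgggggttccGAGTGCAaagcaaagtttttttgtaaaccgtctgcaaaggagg
Slc39a1: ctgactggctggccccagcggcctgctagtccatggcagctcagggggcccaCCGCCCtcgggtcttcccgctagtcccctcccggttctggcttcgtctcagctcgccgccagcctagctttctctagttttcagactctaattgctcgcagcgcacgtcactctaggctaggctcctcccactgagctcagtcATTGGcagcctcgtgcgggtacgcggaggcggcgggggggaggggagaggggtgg
Slc43a2: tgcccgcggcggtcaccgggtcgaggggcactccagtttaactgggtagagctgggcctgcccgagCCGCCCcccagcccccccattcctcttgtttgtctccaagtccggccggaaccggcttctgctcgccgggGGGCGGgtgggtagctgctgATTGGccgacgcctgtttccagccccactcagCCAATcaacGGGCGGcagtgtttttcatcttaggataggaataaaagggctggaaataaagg
Slc5a3: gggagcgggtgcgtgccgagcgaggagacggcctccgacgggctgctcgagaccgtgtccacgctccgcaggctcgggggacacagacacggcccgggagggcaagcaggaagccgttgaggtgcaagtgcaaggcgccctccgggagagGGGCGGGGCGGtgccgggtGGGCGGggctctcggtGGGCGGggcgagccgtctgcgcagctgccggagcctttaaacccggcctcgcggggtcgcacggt

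In the Slc7a11 window the ATF4 core occurred in both orientations, starting 66 and 47 bases before the start. The Slc30a1 match began 43 bases before it. Slc5a3 held 4 GC boxes, of which those at 100 and 95 bases share a base, and Slc43a2 held both box types, 5 matches in all. Of the 179 carriers, 130 had RefSeq windows, 180 windows in all. The core TGATGNAA was in 3.33% of the carrier windows and in 3.45% of all 32841 windows, or 2.05% of the 10726 windows of genes in the table. The metal response element was in 26.1%, 21.4% and 29.2%, and a CCAAT or GC box in 70%, 55.6% and 71.6%. CACGTG, the E-box read by TFEB and MYC, was in 12.8% of carrier windows, 6.02% of all windows and 8.47% of those of table genes. TGANNNNGC, the antioxidant response element, was in 45.6%, 35.2% and 36.8%. The Slc7a11 window also holds a match to it, which is not marked above. These are matches of letters, not binding sites.

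Between NPC and PBS mice the solute carriers as a family centred near 0 difference. No carrier passed the threshold (0 of 179 at an adjusted p under 0.05, limma with Benjamini-Hochberg adjustment over all genes), where 0% of the 12256 genes passed, and the smallest adjusted p of a carrier was 0.382. Of the 179, 99 had higher and 80 lower mean values in NPC libraries, a share of 55.3% higher against 52.5% over all genes. The median log2 fold change (NPC minus PBS, as throughout) was 0.03 against 0.02 over all genes. At an unadjusted p under 0.05 there were 18 carriers, or 10.1%, against 11.3% of all genes. They split into 10 higher and 8 lower, while 6.00% of all genes were higher and 5.32% lower at that level. In 9 carriers, 5.03%, the groups did not overlap, against 6.78% of all genes. Of these, 5 were higher (3.53% of all genes) and 4 lower (3.25% of all genes). These shares are near those of the whole table. With voom weights on the recovered reads 0 carriers passed and 22 had an unadjusted p under 0.05, where 12.9% of all genes did.

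The precision bounded most carriers. The standard error on the log2 scale had a median of 0.19 for carriers as for all genes, and for 142 of 179 carriers (79.3%, against 79.1% of all genes) the 95% interval excluded a 2-fold difference either way. Means below are over 4 libraries per group, with SD, and every fold change is from the same limma fit. Values described as higher or lower are those of genes that did not pass the adjusted threshold.

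**Figure D1:**
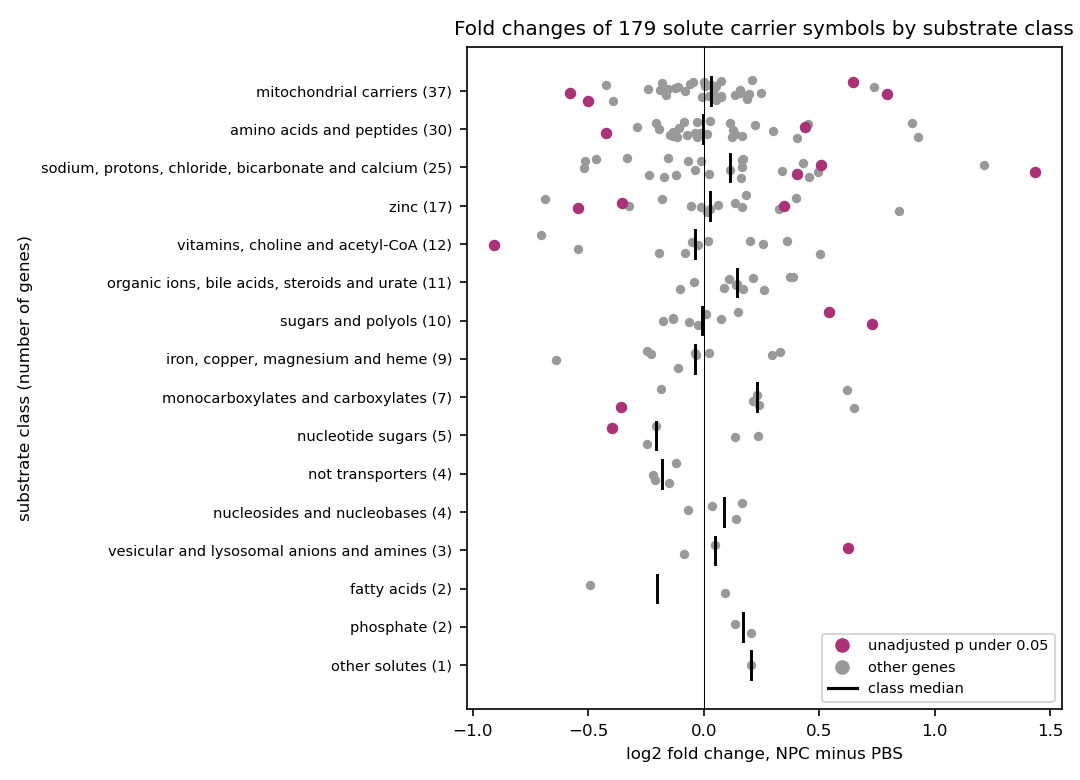
Log2 fold change (NPC minus PBS, horizontal axis) of each of the 179 genes, in rows by the substrate of their family, with the number of genes in brackets. Points with an unadjusted p under 0.05 are coloured and black bars are class medians; points of most classes lie on both sides of 0, and the 18 coloured points are spread over 9 classes.

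Carriers of arginine, phosphate, adenine nucleotides, nucleosides, taurine and copper were the most abundant. Levels are compared between genes only after division by exon length, as log2 normalised expression per kilobase. On that scale Slc7a2 was at 7.79, Slc25a3 at 7.01, Slc25a5 at 6.81, Slc29a3 at 6.11, Slc6a6 at 6.02 and Slc31a1 at 6.01. Slc7a2 was 135th of the 11929 genes with an annotated length. Below them stood Slc25a37 (5.86), Slc31a2 (5.84), Slc38a2 (5.39), Slc15a3 (5.33), Slc39a1 (5.31), Slc11a1 (5.28), Slc3a2 (5.26) and Slc43a2 (5.16). From Slc29a3 down to Slc43a2 the library values of each gene overlapped those of the next. At the other end Slc6a20b was at -2.71, Slc4a4 at -3.04 and Slc4a10 at -3.12 per kilobase. Of the 29 carriers with a mean log2 level of 6 or more (not per length), 0 were at an unadjusted p under 0.05 higher and 2 lower. The 88 from 3 to under 6 gave 6 and 4, and the 62 under 3 gave 4 and 2. In a fit of only the genes with a mean log2 of 3 or more, 10.3% of carriers and 13.1% of all genes were at that p. Shares of all genes within each of these level ranges were not computed, so the counts per range cannot be set against the whole table.

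**Figure D2:**
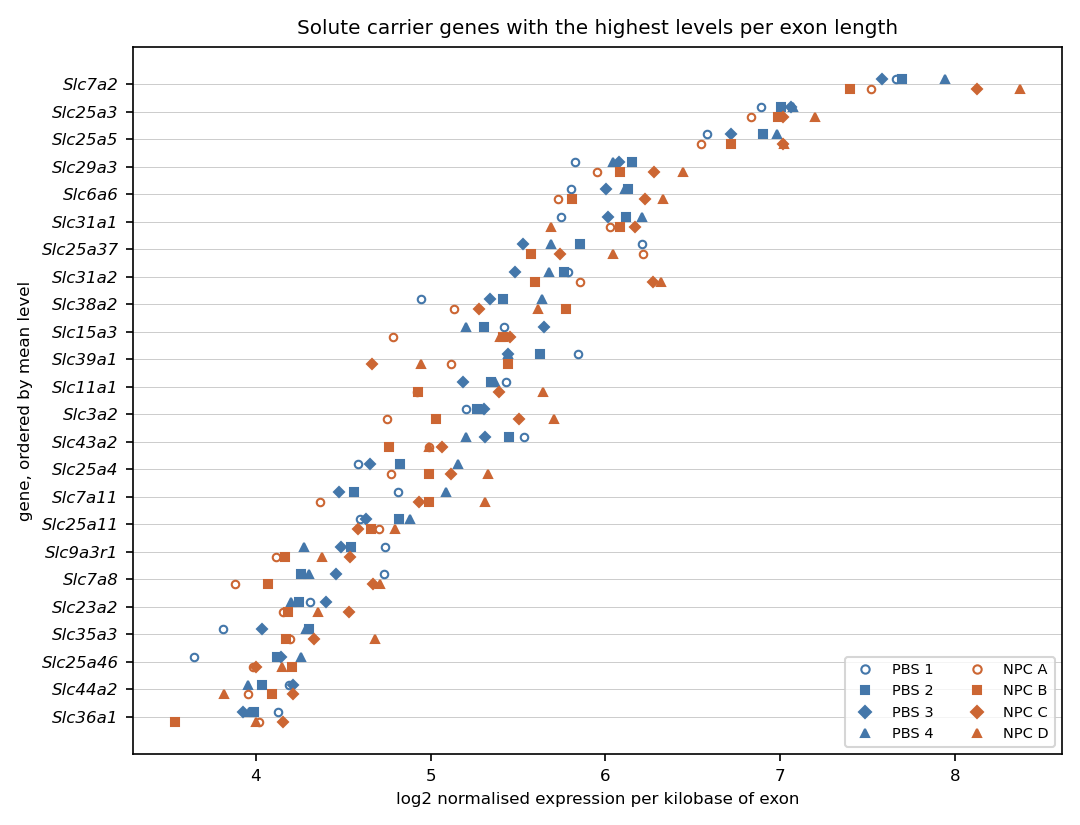
Level of the 24 carriers with the highest mean, in log2 normalised expression per kilobase of exon (horizontal axis), with 1 point per library; blue marks PBS, orange NPC, and open circles PBS 1 and NPC A. Slc7a2 runs from 7.40 in NPC B to 8.37 in NPC D, above the other carriers in every library.

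Among the 30 carriers of amino acids and peptides, 15 had higher and 15 lower means in NPC libraries (median log2 fold change 0.00), 1 of each at an unadjusted p under 0.05. Slc7a2, the cationic amino acid transporter CAT2 that brings arginine into activated macrophages, lies on chromosome 8 (40862396 to 40922308, plus strand, GENCODE vM21 on mm10, introns included). It was at 10.78, 10.81, 10.70 and 11.06 in PBS 1 to 4 and at 10.64, 10.52, 11.24 and 11.49 in NPC A to D (log2 normalised expression). NPC C and D were above, and NPC A and B below, all 4 PBS libraries. The log2 fold change was 0.13 (95% interval -0.34 to 0.60), and it turned to -0.05 with GC content and length corrected and to -0.04 without NPC D. Slc7a1, the widely expressed arginine carrier CAT1, was at 4.41 ± 0.17 and 4.38 ± 0.37. Per kilobase Slc7a2 exceeded Slc7a1 by 5.40 (NPC B) to 7.27 (NPC D) log2 units.

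The heteromeric exchangers consist of the heavy chain 4F2hc, encoded by Slc3a2, and a light chain that moves the solute. Slc3a2 was at 6.80, 6.86, 6.90 and 6.88 in PBS and at 6.34, 6.63, 7.10 and 7.30 in NPC libraries, again with NPC A and B below and NPC C and D above every PBS library. Its log2 fold change was -0.02 (interval -0.41 to 0.37). Slc7a11, the cystine and glutamate exchanger xCT whose promoter is given above, was at 8.11, 7.86, 7.78 and 8.39 in PBS and at 7.66, 8.29, 8.23 and 8.61 in NPC libraries. The groups overlapped, with NPC A lowest and NPC D highest of all 8 (0.16, interval -0.25 to 0.58). On the linear scale per kilobase, the 5 light chains Slc7a5, Slc7a6, Slc7a7, Slc7a8 and Slc7a11 together came to 1.47 to 1.88 times Slc3a2 in the 8 libraries. Slc7a11 made up 38.2 to 51.6% of that light chain total. Slc7a8, the light chain LAT2 for small neutral amino acids, was at 6.47 ± 0.21 and 6.36 ± 0.42, Slc7a7 (y+LAT1, which exports arginine for neutral amino acids) at 4.45 ± 0.05 and 4.26 ± 0.34, and Slc7a5, the leucine importer LAT1, at 2.99 ± 0.15 and 2.85 ± 0.51 (log2 normalised expression, PBS and NPC).

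The smallest p of the class was that of Slc43a2, the facilitative carrier LAT4 for leucine, isoleucine, methionine and phenylalanine. The gene lies on chromosome 11 (75531694 to 75577575, plus strand). Its values were 8.38, 8.29, 8.16 and 8.05 in PBS, against 7.84, 7.61, 7.91 and 7.84 in NPC libraries. All NPC libraries were below all PBS libraries, with a log2 fold change of -0.42 (SE 0.12, unadjusted p 0.00365, adjusted p = 0.382). The predicted gene Gm45606 on the opposite strand shares 548 of its 7194 exon bases, and the strand setting of the counting is not given. Slc38a6, an SLC38 family member named after its values were seen, was at 5.51 ± 0.15 and 5.95 ± 0.36 (0.44, unadjusted p 0.0217). With GC content and length corrected its fold change was 0.33 (unadjusted p 0.0632).

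Sodium-coupled glutamine carriers had similar means in both groups. Slc38a1 was at 6.25 ± 0.14 and 6.21 ± 0.13 and Slc38a2 at 7.55 ± 0.29 and 7.67 ± 0.30 log2 normalised expression in PBS and NPC libraries. Slc1a5, the neutral amino acid exchanger ASCT2, was at 4.06 ± 0.27 and 4.28 ± 0.22. Slc6a6, the taurine transporter, was at 8.64 ± 0.15 and 8.65 ± 0.30, with a fold change of 0.01 (interval -0.32 to 0.34). Slc1a3, the glutamate transporter GLAST, was lower and wider, at 2.19 ± 0.30 and 2.59 ± 0.59.

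Of 4 lysosomal exporters, Slc15a3 was the most abundant, at 5.33 per kilobase against 3.96 for Slc36a1, 3.94 for Slc15a4 and 1.78 for Slc38a9 (log2). Slc15a3 and Slc15a4 move histidine and peptides out of the lysosome, and Slc15a4 is needed for signalling by endosomal Toll-like receptors. These genes were at 6.62 ± 0.19 and 5.44 ± 0.10 in PBS and at 6.49 ± 0.32 and 5.33 ± 0.32 in NPC libraries (log2 normalised expression). Slc36a1, a proton-coupled carrier of small amino acids, was at 6.43 ± 0.09 and 6.36 ± 0.27. Slc38a9, the lysosomal arginine sensor of mTORC1, was at 4.87 ± 0.07 and 5.0 ± 0.24. No log2 fold change among these 4 was beyond 0.13 in size, and each interval excluded a 2-fold difference.

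**Figure D3:**
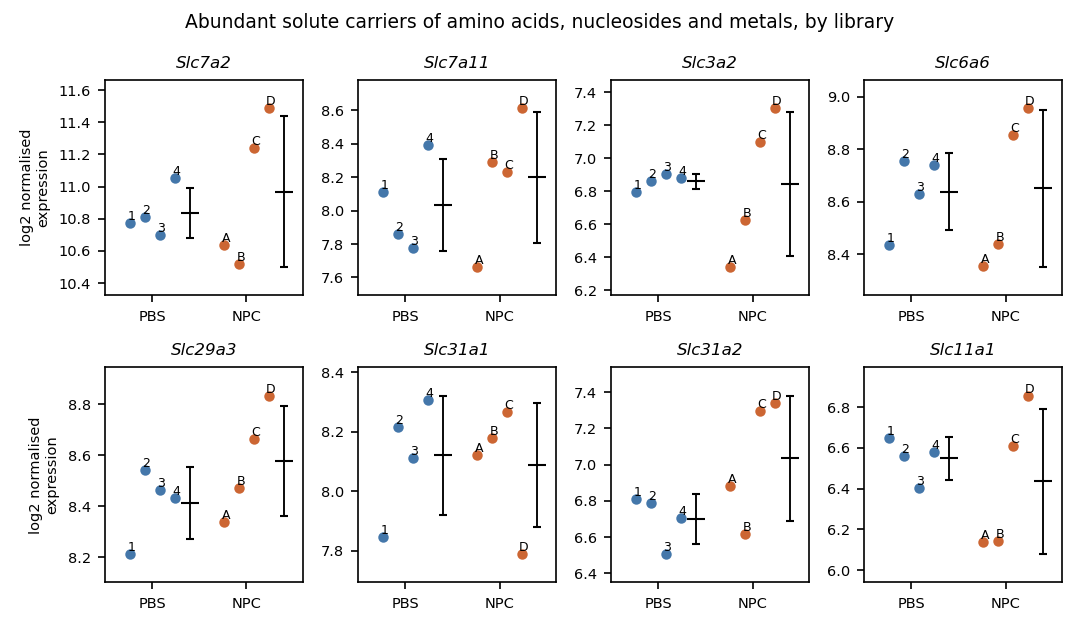
Log2 normalised expression (vertical axes, 1 scale per panel) of 8 abundant carriers in each library, labelled 1 to 4 for PBS and A to D for NPC; bars are group means with SD. NPC A and B sit below NPC C and D in every panel except those of Slc7a11 and Slc31a1, and the PBS libraries overlap the NPC libraries in all 8.

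Among the 10 carriers of sugars and polyols, 5 were higher and 5 lower (median -0.01). At an unadjusted p under 0.05, 2 were higher and 0 lower, where 6.00% of all genes were higher and 5.32% lower. Slc5a3, the sodium/myo-inositol cotransporter that cells induce in hypertonic media, had the smallest p of all carriers. It lies on chromosome 16 (92058322 to 92087473, plus strand). Its values were 2.92, 3.04, 3.61 and 3.10 in PBS, against 4.09, 4.05, 3.72 and 3.71 in NPC libraries, so every NPC library was above every PBS library. The log2 fold change was 0.73 (SE 0.19, unadjusted p 0.00192, adjusted p = 0.382), on 42 to 161 reads per library. With GC content and length corrected it was 0.47; the transcript has 41.6% GC against a median of 49% over all genes. It shares 159 of 10913 exon bases with Mrps6 on the same strand.

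Slc2a3, the high-affinity glucose transporter GLUT3, was at 2.41, 2.48, 2.12 and 2.09 in PBS and at 3.04, 3.0, 2.58 and 2.65 in NPC libraries. The groups did not overlap (0.54, SE 0.20, unadjusted p 0.0190), although the gene was low, with 20 to 109 reads. Slc2a6, the hexose transporter GLUT6, was at 4.44 ± 0.11 and 4.59 ± 0.17. Per kilobase it exceeded Slc2a3 by 2.29 (NPC A) to 3.23 (PBS 3) log2 units, so it was the more abundant of both in every library. Slc37a2, a sugar phosphate exchanger, was at 5.05 ± 0.07 and 4.91 ± 0.20 log2 normalised expression, Slc37a4, the glucose-6-phosphate carrier of the endoplasmic reticulum, at 2.76 ± 0.17 and 2.73 ± 0.17, and Slc50a1, the sugar carrier SWEET1, at 3.70 ± 0.25 and 3.64 ± 0.28.

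Of the 7 carriers of monocarboxylates and carboxylates 5 were higher and 2 lower (median 0.23). Slc16a3, the lactate exporter MCT4, was at 5.91, 5.59, 5.31 and 5.35 in PBS and at 5.04, 5.18, 5.33 and 5.19 in NPC libraries. Only NPC C entered the range of the PBS libraries (-0.36, SE 0.15, unadjusted p 0.0296). In 13 of the 20 alternative settings its unadjusted p was under 0.05, and without PBS 1 and NPC A its fold change was -0.19 (-0.23 without PBS 1 alone). Slc16a1, the lactate carrier MCT1, was at 4.36 ± 0.29 and 4.17 ± 0.53, and per kilobase it was below Slc16a3 in every library, by 0.49 to 1.67 log2 units.

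Mitochondrial carriers of the SLC25 family were the largest class, 37 genes with 22 higher and 15 lower (median 0.03) and 2 of each at an unadjusted p under 0.05. The carriers that feed ATP synthesis had similar means: Slc25a3, the phosphate carrier, was at 7.97 ± 0.08 and 7.97 ± 0.15 log2 normalised expression. Its fold change of 0.00 had an interval of -0.24 to 0.25. Slc25a5 and Slc25a4, the adenine nucleotide translocators ANT2 and ANT1, were at 7.11 ± 0.18 and 5.75 ± 0.26 in PBS and at 7.14 ± 0.23 and 6.00 ± 0.23 in NPC libraries. Per kilobase Slc25a5 was above Slc25a4 by 1.69 to 2.08 log2 units, with 3 of the 4 NPC libraries below all PBS libraries in that difference. Both translocators have processed pseudogenes, so reads may be shared with near-identical copies. Slc25a37, the iron importer mitoferrin-1, was at 7.88 ± 0.29 and 7.95 ± 0.29, and Slc25a39, which imports glutathione, at 3.78 ± 0.11 and 3.62 ± 0.24.

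Slc25a15, the ornithine carrier of the urea cycle, was at 3.09, 3.08, 3.10 and 3.17 in PBS and at 2.26, 2.60, 2.36 and 2.91 in NPC libraries (chromosome 8, 22375551 to 22398597, minus strand). All NPC libraries were below the narrow range of PBS (-0.58, SE 0.19, unadjusted p 0.00939, adjusted p = 0.390). With reads thinned to the shallowest library the fold change was -0.05 (unadjusted p 0.876). Slc25a1, the citrate carrier, was at 3.56 ± 0.29 and 3.05 ± 0.32 (-0.50, unadjusted p 0.0315), with overlapping groups. Its unadjusted p was under 0.05 in 12 of 20 alternative settings, and without PBS 1 and NPC A the fold change was -0.32 (unadjusted p 0.179). Slc25a23, an ATP-Mg/phosphate carrier, and Slc25a53, an orphan carrier, were both named after their values were seen. Their fold changes were 0.79 and 0.65 at unadjusted p of 0.0317 and 0.0441, on as few as 6 and 9 reads in a library. With reads thinned to the shallowest library these became 0.13 (unadjusted p 0.753) and 0.53 (unadjusted p 0.178), and with GC content and length corrected 0.88 (0.0164) and 0.50 (0.113).

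The 17 zinc carriers gave 10 higher and 7 lower (median 0.03). SLC30 proteins take zinc out of the cytosol, and of 6 measured 4 were higher and 2 lower; SLC39 proteins take it in, and of 11 measured 6 were higher and 5 lower. Slc39a1, the plasma membrane importer ZIP1 and the most abundant zinc carrier per kilobase, lies on chromosome 3 (90248172 to 90253612, plus strand). Its values were 7.08, 6.87, 6.68 and 6.69 in PBS, against 6.36, 6.68, 5.91 and 6.19 in NPC libraries. NPC B stood level with the lowest PBS library and the other 3 below it (-0.55, SE 0.16, unadjusted p 0.00505, adjusted p = 0.382). Slc30a1, the exporter ZnT1 that zinc induces through MTF1, was at 5.21, 5.56, 5.52 and 5.59 in PBS and at 5.36, 5.35, 5.35 and 5.09 in NPC libraries (-0.18, interval -0.46 to 0.09). The groups overlapped, since PBS 1 lay below NPC A to C. Slc39a14, an importer of zinc and iron, was at 4.14 ± 0.29 and 4.33 ± 0.22. Outside the named set, Slc39a11 (-0.35, groups not overlapping) and Slc30a7 (0.35) had an unadjusted p of 0.0381 and 0.0467. With GC content and length corrected their fold changes were -0.29 (unadjusted p 0.0806) and 0.13 (unadjusted p 0.446). For Slc39a11 the p was above 0.05 also with thinned reads (-0.26, unadjusted p 0.310) and without PBS 1 and NPC A (-0.32, unadjusted p 0.101).

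Of the 9 carriers of iron, copper, magnesium and heme, 3 were higher and 6 lower (median -0.04), with 0 at an unadjusted p under 0.05. Slc11a1, the phagosomal metal carrier NRAMP1, was at 6.65, 6.56, 6.40 and 6.58 in PBS and at 6.14, 6.14, 6.61 and 6.86 in NPC libraries. NPC A and B were below and NPC D above all PBS libraries (-0.11, interval -0.46 to 0.23). Slc11a2, the iron importer DMT1, was at 5.83 ± 0.05 and 5.79 ± 0.09 (interval -0.26 to 0.19). The copper importer Slc31a1 (CTR1) was at 8.12 ± 0.20 and 8.09 ± 0.21. Its relative Slc31a2 (CTR2), an internal copper carrier, was at 6.81, 6.79, 6.51 and 6.70 in PBS and at 6.88, 6.62, 7.29 and 7.34 in NPC libraries, where only NPC B entered the PBS range (0.33, unadjusted p 0.0586). Per kilobase Slc31a1 minus Slc31a2 ran from -0.63 in NPC D to 0.53 in PBS 3. Slc40a1, the iron exporter ferroportin, was near the limit of detection with 1 to 23 reads, at 0.40 ± 0.65 and -0.25 ± 1.52, while Slc48a1, the heme carrier HRG1, was at 4.55 ± 0.07 and 4.30 ± 0.37.

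The 25 carriers of sodium, protons, chloride, bicarbonate and calcium had 14 higher and 11 lower values (median 0.12). At an unadjusted p under 0.05, 3 were higher and 0 lower, where 6.00% of all genes were higher and 5.32% lower. So few genes show no direction of the class. Slc9a9, the sodium/proton exchanger NHE9 of recycling endosomes, was at 3.40, 3.92, 4.16 and 4.05 in PBS and at 4.21, 4.70, 4.39 and 4.26 in NPC libraries. The groups did not overlap (0.51, SE 0.18, unadjusted p 0.0164), though only 0.05 separated the highest PBS from the lowest NPC library. Slc9a7, the exchanger NHE7 of the trans-Golgi, named after its values were seen, was at 4.06 ± 0.26 and 4.46 ± 0.18, also without overlap (0.40, unadjusted p 0.0272). With thinned reads its fold change was 0.22 (unadjusted p 0.297). Slc9a8, an exchanger of the Golgi that was also named after its values were seen, was at 4.34 ± 0.38 and 4.51 ± 0.26 (0.17, interval -0.26 to 0.60).

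Slc24a1, a potassium-dependent sodium/calcium exchanger known from retinal rods, had the largest fold change of the family, 1.43 (SE 0.41, unadjusted p 0.00442, adjusted p = 0.382). It rested on 6 to 32 reads per library. The values were -0.12, -0.25, 0.83 and -0.09 in PBS, against 0.68, 1.89, 1.24 and 2.3 in NPC libraries, where PBS 3 stood above NPC A. With 1 added on the linear scale the fold change was 0.92. Slc4a7, the bicarbonate importer NBCn1, was at 6.48 ± 0.14 and 6.65 ± 0.34, Slc8a1, the sodium/calcium exchanger NCX1, at 4.40 ± 0.17 and 4.57 ± 0.43, and Slc12a2, the chloride importer NKCC1, at 2.76 ± 0.50 and 3.19 ± 0.48.

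**Figure D4:**
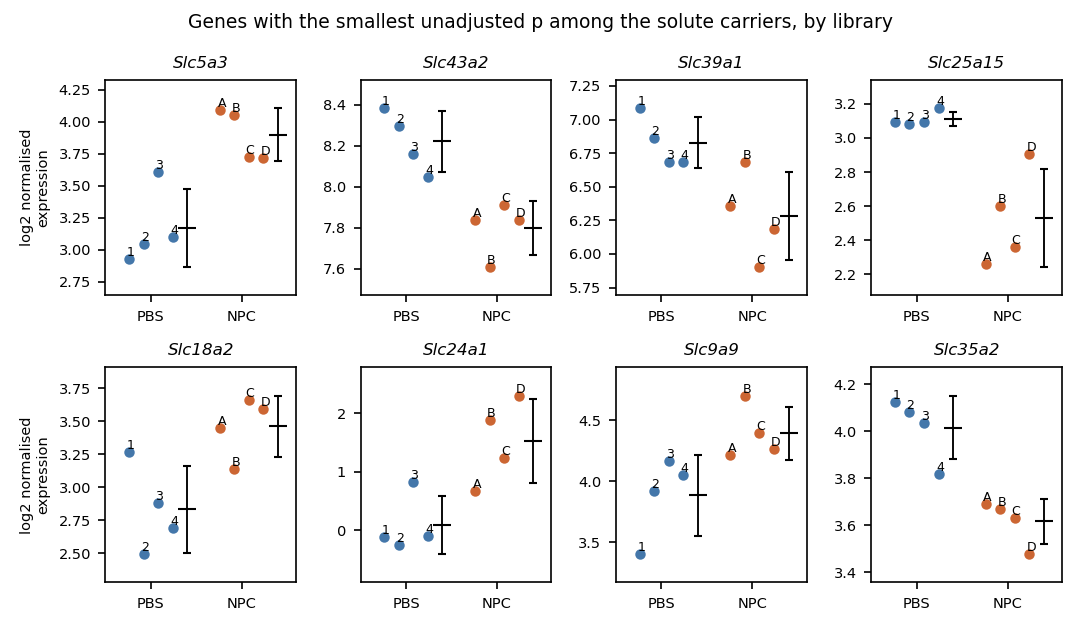
Log2 normalised expression (vertical axes, 1 scale per panel) of the 8 carriers with the smallest unadjusted p, by library, with group means and SD. Slc5a3, Slc43a2, Slc25a15, Slc35a2 and Slc9a9 show no overlap between PBS (1 to 4) and NPC (A to D), while Slc39a1, Slc18a2 and Slc24a1 do overlap.

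Nucleoside carriers (4 genes, 3 higher and 1 lower, 0 at an unadjusted p under 0.05) were led by Slc29a3, the lysosomal nucleoside exporter ENT3. It was at 8.21, 8.54, 8.46 and 8.43 in PBS and at 8.34, 8.47, 8.67 and 8.83 in NPC libraries (0.17, interval -0.12 to 0.46), with overlapping groups. Slc29a1, the surface carrier ENT1, was at 3.12 ± 0.09 and 3.26 ± 0.35, and Slc28a2, the sodium-coupled purine nucleoside carrier, at 4.69 ± 0.12 and 4.62 ± 0.38.

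Nucleotide sugar carriers of the Golgi (5 genes, 2 higher and 3 lower, median -0.21) held 1 gene without overlap. Slc35a2, the UDP-galactose carrier, was at 4.12, 4.08, 4.04 and 3.82 in PBS and at 3.69, 3.67, 3.63 and 3.48 in NPC libraries. The highest NPC library was 0.13 below the lowest PBS library (-0.40, SE 0.14, unadjusted p 0.0145), and the unadjusted p stayed under 0.05 in all 20 alternative settings. Slc35a3, the UDP-N-acetylglucosamine carrier and the most abundant of the class per kilobase, was at 6.67 ± 0.23 and 6.90 ± 0.24. Slc35a1, the CMP-sialic acid carrier, was at 4.62 ± 0.12 and 4.37 ± 0.66.

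Of the 3 vesicular carriers, Slc18a2, the monoamine carrier VMAT2 of neurons, mast cells and platelets, was at 3.27, 2.50, 2.88 and 2.69 in PBS and at 3.45, 3.14, 3.66 and 3.59 in NPC libraries. NPC B was the only NPC library below PBS 1 (0.63, SE 0.20, unadjusted p 0.00908). Slc17a5, the lysosomal sialic acid exporter sialin, was at 4.51 ± 0.20 and 4.43 ± 0.53.

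Vitamin, choline and acetyl-CoA carriers (12 genes, 5 higher and 7 lower, median -0.04) were led per kilobase by Slc23a2, the ascorbate importer SVCT2, at 6.96 ± 0.09 and 6.98 ± 0.17 log2 normalised expression. Slc44a1, a choline carrier, was at 6.14 ± 0.38 and 6.09 ± 0.29. The folate carriers Slc19a1 and Slc46a1 were low, at 1.26 ± 0.40 and 0.73 ± 0.72 in PBS and at 1.24 ± 0.45 and 0.02 ± 0.49 in NPC libraries. Slc52a3, a riboflavin carrier with 2 to 41 reads, was the 1 gene of the class at an unadjusted p under 0.05 (1.07 ± 0.33 and 0.16 ± 0.75, fold change -0.91, unadjusted p 0.0477), and it kept that in 8 of 18 settings.

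Organic ion carriers (11 genes, 9 higher and 2 lower, median 0.14, 0 at an unadjusted p under 0.05) included Slco3a1, a prostaglandin and hormone carrier, at 5.94 ± 0.22 and 6.20 ± 0.17 (0.26, unadjusted p 0.0787). Slc22a5, the carnitine importer OCTN2, was at 1.97 ± 0.27 and 2.34 ± 0.39, and Slc2a9, a urate carrier, at 3.15 ± 0.34 and 3.11 ± 0.17. The fatty acid transport proteins Slc27a1 and Slc27a4 were at 4.94 ± 0.20 and 2.63 ± 0.13 in PBS and at 5.03 ± 0.43 and 2.14 ± 0.51 in NPC libraries. Of the phosphate importers, Slc20a1 was at 5.62 ± 0.42 and 5.76 ± 0.31 and Slc20a2 at 2.01 ± 0.16 and 2.21 ± 0.29. The urea carrier Slc14a1, with 3 to 36 reads, was at 0.99 ± 0.09 and 1.19 ± 1.20.

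The symbols also took in 4 genes whose products are not carriers. They are Slc9a3r1, which encodes the scaffold protein NHERF1, Slc4a1ap, Slc7a6os and the pseudogene Slc2a4rg-ps. All 4 had lower means in NPC libraries (median -0.18), with 0 at an unadjusted p under 0.05. Slc9a3r1 was at 5.46 ± 0.19 and 5.24 ± 0.20.

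Several carriers differed more between pools than between treatments. Slc10a1, a bile acid carrier known from hepatocytes and named after its values were seen, was at -0.12, 2.04, 2.41 and 2.33 in PBS and at -0.22, 2.85, 2.58 and 1.89 in NPC libraries. PBS 1 and NPC A were each far below the other libraries of their group. Slco2b1, an organic anion carrier, was lowest in the same libraries, with 2.49 in PBS 1 and 3.38 in NPC A, where 3.49 to 4.72 was seen in the other 6. The summed microglial genes were also lowest there, with 6.11 in PBS 1 and 6.58 in NPC A, where the others had 7.09 to 7.83. Whether microglial RNA plays a part in these values was not tested.

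Slc46a3, a lysosomal carrier, was at 1.29 in PBS 1 against 2.62 to 2.97 in the other PBS libraries, but NPC A (2.53) lay among NPC B to D (2.39 to 3.62). Slc15a2, the peptide carrier PEPT2, was lowest in PBS 1 at 2.52 against 3.70 to 4.64 in the other PBS libraries. Slc36a2, an amino acid carrier, spread in the NPC group alone, from 2.17 in NPC B to 4.43 in NPC A, against 3.27 to 3.53 in PBS. Slc4a10, with the widest spread of the family (pooled SD 2.17), had 0 to 12 reads, and its -4.98 in PBS 1 is the value given to 0 reads. Slc25a43 likewise had 0 reads in 1 library, NPC B. Over the family PBS 1 was the lowest PBS library for 31.8% of carriers (33.3% of all genes), and NPC A the lowest NPC library for 34.6% (26.5% of all genes).

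**Figure D5:**
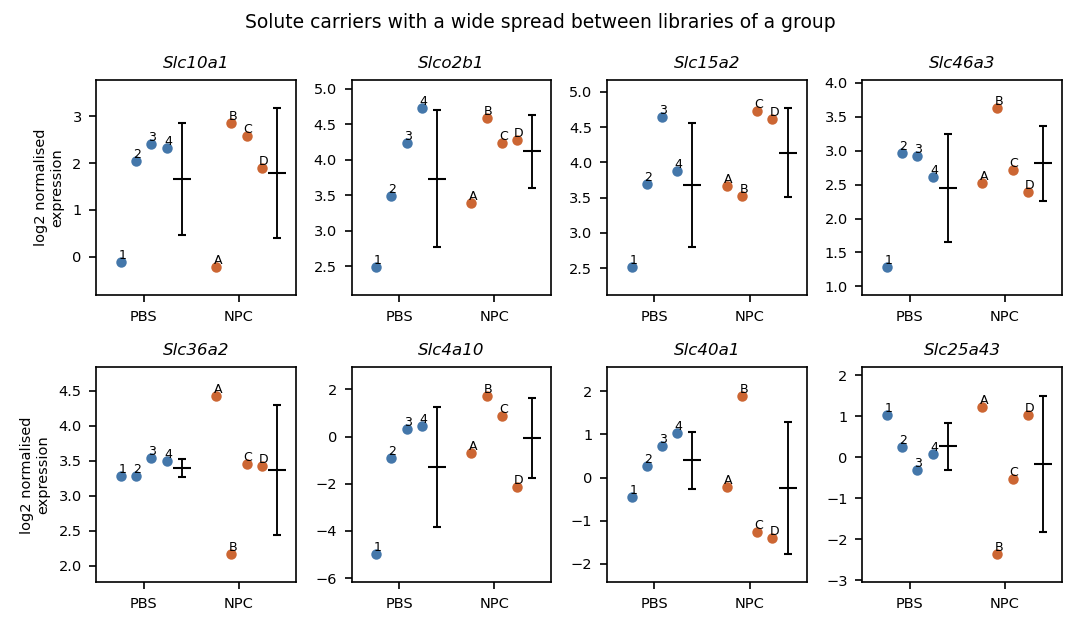
Log2 normalised expression (vertical axes, 1 scale per panel) of 8 carriers with a wide spread between libraries of a group, with group means and SD. PBS 1 is lowest of the PBS libraries for Slc10a1, Slco2b1, Slc15a2, Slc46a3, Slc4a10 and Slc40a1, whereas NPC A is lowest of the NPC libraries for Slc10a1 and Slco2b1 only.

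Other transport genes were set beside the carriers from lists written by family, which were not tested as sets. Over all genes 52.5% were higher in NPC libraries. At an unadjusted p under 0.05, 6.00% of all genes were higher and 5.32% lower. Of the 17 measured subunits of the vacuolar proton pump, which makes the gradient that lysosomal carriers use, 3 were higher and 14 lower (median -0.13), with 0 higher and 3 lower at an unadjusted p under 0.05; Atp6v1g1 had the smallest p (-0.40, unadjusted p 0.00966). Of 26 ABC transporters 15 were higher and 11 lower (median 0.05), and the 1 gene at an unadjusted p under 0.05 was Abcg1, the sterol exporter (-0.32, unadjusted p 0.0138). The 13 sodium, potassium, calcium and copper pumps gave 7 higher and 6 lower (median 0.03) with 0 at that level. The 30 solute transporters with other symbols gave 13 higher and 17 lower (median -0.02), with 1 at that level. None of these genes passed the adjusted threshold.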

How the data were processed

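The deposited table holds log2 normalised expression, 1 column per library; the submitters' processing notes name the build mm10 and, as tools, limma, HTSeq 0.5.3, STAR 2.3.0 and Trimmomatic. For annotation, strand setting and filters, the entry is: not given in the sources used here. All values equal log2 of (whole reads + 0.5) over a scaled library (100% whole within 0.01), so reads were recovered for depth, voom weights and thinning. The offset weighs more in the shallower NPC libraries. PCR duplicates cannot be removed, so reads are not independent molecules.

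The deposited log2 values were fitted with R 4.3.3 and limma 3.58.1 (treatment the only term, variance trend, two-sided, Benjamini-Hochberg over 12256 genes, threshold 0.05), after tests on simulated reads. Lengths, GC content and positions came from GENCODE vM21 by symbol (11929 matched, 561 through RefSeq synonyms; exon lengths from its basic set); all 179 members matched. Per-kilobase levels subtract log2 of exon length. Named members came first from a written list of 61 well-described carriers, 60 of them with a symbol of the form required here. Added were the highest level and smallest p of each class, and those with p under 0.01 and no overlap, 71 in all. Carriers named beyond the 71 were chosen after their values were seen. Members and lists were chosen with earlier results of these data known; the classes of Slc4a1ap and Slc14a1 were set after the table was seen. A few genes matching the pattern or the naming rule are not reported here. The alternatives were 3 variance or weight settings, 2 normalizations, 2 filters, another offset, voom, thinning, a GC and length correction and leaving out libraries. Plots used matplotlib 3.10.9.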

Additional observations from a re-analysis of the deposited data

Results flagged for a closer look

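In 5 of the 142 gene and group combinations tested (71 named carriers in each group) 1 library stood far from the other 3, by its gap to the nearest one relative to the range of the group. Chance flags about 1 in 20 groups, which is more than were found. In NPC A, Slc15a3 was at 6.01 while NPC B to D had 6.63 to 6.68, Slc38a9 at 5.35 against 4.85 to 4.90, and Slc28a2 at 5.19 against 4.40 to 4.47 (log2 normalised expression). In NPC D, Slc30a1 was at 5.09 against 5.35 to 5.36. In PBS 3, Slc24a1 was at 0.83 against -0.25 to -0.09, all on few reads. Of the 5, 3 lie in NPC A, where Slc15a3 was below and Slc38a9 and Slc28a2 were above the other NPC libraries. NPC A also had the lowest sum of microglial genes among the NPC libraries (6.58 against 7.35 to 7.83). Whether the flags and this sum are linked was not tested.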

How the results depend on the processing

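In all 20 alternative settings 0 carriers passed an adjusted p under 0.05. At an unadjusted p under 0.05 there were 18 carriers. Leaving out single libraries the count ran from 11 (without PBS 2) to 26 (without NPC B). In the other settings it ran from 12 (genes with a mean log2 of 3 or more, 117 carriers tested) to 26 (library weights). The share of all genes moved as well. It was 6.46% against 6.15% of carriers without PBS 2, and 15.1% against 14.5% without NPC B. With a mean log2 of 3 or more it was 13.1% against 10.3% of carriers, and with library weights 17.5% against 14.5%. The split of 10 higher and 8 lower was 7 and 8 after quantile normalization, 8 and 6 after GC and length correction, 14 and 8 with voom and 16 and 7 without PBS 1 and NPC A. The median fold change ran from -0.02 (GC and length) to 0.05, and from 0.00 to 0.05 leaving out single libraries, against an SD between libraries of 0.07. The 12 named carriers at an unadjusted p under 0.05 kept their sign in every setting, and Slc43a2, Slc35a2, Slc5a3, Slc18a2 and Slc39a1 that p level in all 20 and Slc24a1 in the 18 that could test it. Slc25a15 lost it with thinning (1 draw), Slc9a9 without PBS 1 or NPC B, and Slc2a3 with the GC correction or without PBS 3 or PBS 4. Slc16a3, Slc25a1 and Slc52a3 kept it in 13 of 20, 12 of 20 and 8 of 18 settings. Of the 71 named carriers 36 changed sign in some setting. None passed the adjusted threshold in any. The 12 were set apart by their p in these same libraries. Settings that change only the variance model or the filter leave fold changes as they were. The kept signs and p levels are therefore no independent support for these 12 carriers. Exons of 47 carriers overlap another gene. No paired analysis was possible because PBS libraries carry numbers and NPC libraries letters.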
